A study of Homo sapiens with 12 samples.

Results

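Ribosome profiling counts the stretches of mRNA that ribosomes protect, so a gene's footprint density reflects how many ribosomes sat on its mRNA. The comparison described here sets footprints of wild-type HEK293 cells treated with harringtonine and cycloheximide against footprints of the same cells treated with cycloheximide alone, gene by gene. Its members are the genes whose deposited mean was above 0 in all 4 groups of the table, 12091 of 19219 gene rows, and 9231 of them held enough reads to be compared. HEK293 is an immortalised human embryonic kidney line. The wild-type samples, grown in DMEM with serum, comprised 3 libraries with harringtonine and cycloheximide and 5 with cycloheximide. A line of the same cells with CNBP knocked out by CRISPR-Cas9 supplied 1 and 3 further libraries of these kinds and enters only as a second measurement of the drug ratio. The labels used here give no dose, time or order of the drugs, and do not say whether libraries of a group came from separate cultures.

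Harringtonine blocks ribosomes that have just joined at a start codon, while ribosomes already elongating can move on and leave the mRNA. Cycloheximide stalls elongating ribosomes wherever they are. A harringtonine sample is therefore richer in footprints at start sites, and its total over a gene depends both on that start signal and on how far the body of the message has emptied. The table holds 1 value per gene and condition, so positions along a message were not analysed here. Ribosomes inside mitochondria are of another type and are known to be insensitive to cycloheximide.

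The deposited values are means of RPKM, reads scaled for transcript length and library size, over the libraries of a group. Their smallest steps fixed the read total of every library, and with these totals the means of 5020 of the 9231 compared genes (54.4%) could be separated into the 3 harringtonine libraries, here called A (21313170 reads), B (12136721) and C (8490083). For 3068 genes with at least 30 reads, whole reads were obtained in all 8 wild-type libraries, the 5 with cycloheximide being D (36588045 reads), E (27160573), F (19971758), G (18464372) and H (13247304). The letters follow the read totals and cannot be matched to the sample numbers. These totals are far above the reads on genes. On the 4424 genes separated in all 8 libraries, A held 26169 reads (0.12% of its total), B 40382 (0.33%) and C 21623 (0.25%). The 5 libraries with cycloheximide held 25542 to 53740 reads there (0.094 to 0.41%). Genes that separated were thinner, with a median of 56.1 effective reads with cycloheximide against 84.9 for the other compared genes. Effective reads are the reads on a gene that its deposited mean corresponds to at the listed transcript length. The median compared gene held 67.1 with cycloheximide and 25.3 with harringtonine. Over all genes, effective reads came to 2.14e+06 for the 5 cycloheximide libraries and 1.13e+06 for the 3 harringtonine libraries. HEK293 markers were present, 12 of 13 above 0 with either treatment, whereas the blood, liver and muscle lists summed to 0.312, 0.0389 and 1.61 RPKM with cycloheximide and to 0.267, 0.0923 and 1.91 with harringtonine. PTPRC, CD3D, ALB, TTR and MYOD1, which help define those tissues, were listed at 0 with cycloheximide. Other members were not, since 4 of 10 blood and 2 of 8 liver markers were above 0 with cycloheximide (highest 0.161 and 0.0287 RPKM). In the HEK293 list VIM held 2.35 of 5.53 RPKM with cycloheximide, and PAX2, EYA1 and HOXC10 only 0.00937, 0.0221 and 0.0263. Of the muscle list 5 of 7 were above 0 with cycloheximide, and ACTA1, skeletal actin, made up most of its sum with 1.39 RPKM (213 effective reads), followed by CKM with 0.143. Their part in the results was not tested.

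The libraries did not group by drug. Across the 3068 genes, library B had a Pearson correlation of log2 reads of 0.60 with cycloheximide library H and 0.56 with G, but of 0.24 with A and 0.06 with C, the other two harringtonine libraries. Libraries A and C stood closer to cycloheximide libraries D and F (0.53 and 0.55 for A, 0.56 and 0.58 for C) than to each other (0.46). These are descriptions across genes, which share length and abundance, and carry no test. Library B also placed 8.75% of its reads on separated genes in its 10 highest genes, against 1.13 to 3.69% in the other 7 libraries. The labels name no batch, so what these likenesses follow was not tested, and values by library, or without library B, are given below for genes and lists that could be separated. Against the cycloheximide mean, the median separated gene stood at a log2 ratio of -0.85 in A, 0.18 in B and 0.14 in C. RPKM by library is given with that offset left in, so most genes lie below the cycloheximide mean in A. Values on a library's own scale have it removed.

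**Figure D1:**
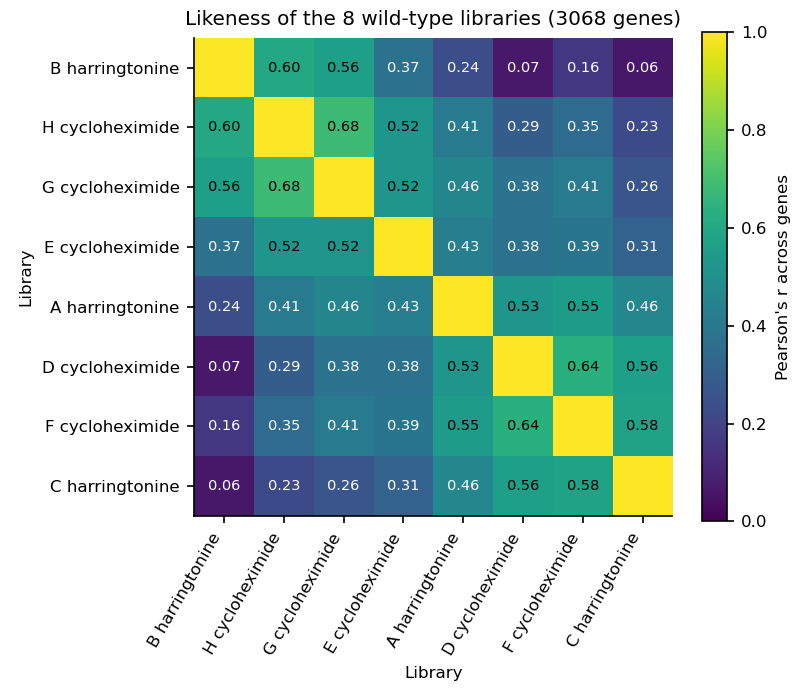
Pearson's correlation of log2 reads across 3068 genes for each pair of the 8 wild-type libraries, ordered by likeness; colour runs from 0 to 1. Harringtonine library B lies beside cycloheximide libraries G and H, and harringtonine libraries A and C beside cycloheximide libraries D and F.

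Harringtonine over cycloheximide is given as log2 of the ratio of the authors' means, with the median gene set to 0. The interval beside a ratio is a 95% Clopper-Pearson interval on effective reads. It covers counting error only, not the spread between libraries, since it is built on the 2 group means. Footprints counted without molecular tags may also be copies of 1 molecule, so the interval can be too narrow even for counting error. With harringtonine 378 of 9231 genes (4.09%) stood 2-fold or more above the median gene, and 407 (4.41%) stood 2-fold or more below it. Without centring these were 472 and 327. The quartiles of the ratio were -0.35 and 0.34. The interval excluded 0 for 372 of the higher genes (4.03% of all compared) and 307 of the lower (3.33%). In the plot of ratio against level the highest ratios stood at all levels, while most of the lowest were at genes below 1 RPKM.

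**Figure D2:**
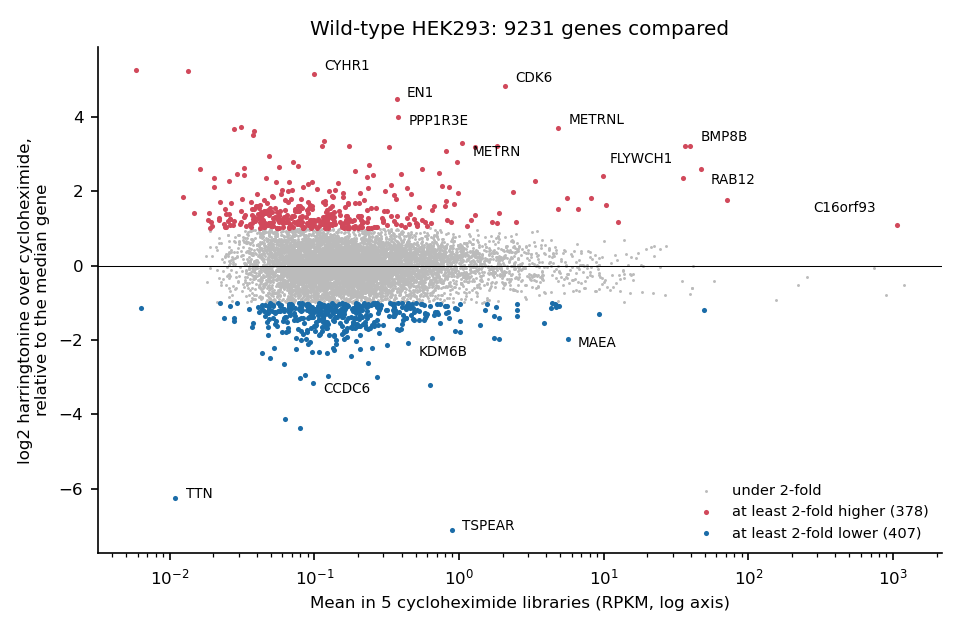
Each point is 1 of 9231 genes, by its mean RPKM in the 5 cycloheximide libraries (log axis) and its log2 ratio of harringtonine over cycloheximide relative to the median gene. Red points are the 378 genes at least 2-fold higher and blue points the 407 genes at least 2-fold lower, with leading genes named.

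The highest ratios were large. EN1, a homeobox transcription factor of the midbrain and limb (ENSG00000163064, hg19 chromosome 2, 119599747 to 119605254), had a mean of 8.68 RPKM with harringtonine and 0.370 with cycloheximide, a log2 ratio of 4.47 (4.15 to 4.79). Its 3 harringtonine libraries held 0.0325 RPKM in A, 26.0 in B and 0.0408 in C. Of the harringtonine libraries B alone was high, and A and C lay within the range of the 5 cycloheximide libraries, 0.0255 to 1.12 RPKM. The higher of these were G (0.582) and H (1.12), the cycloheximide libraries most like B, against 0.0474, 0.0255 and 0.0694 in D, E and F. CYHR1 was high in B as well, with 0.0201 RPKM in A, 11.2 in B and 0.0126 in C against 0.0315 to 0.218 with cycloheximide, and a ratio of 5.15 (4.78 to 5.54). There A and C lay below every cycloheximide library in RPKM, with the offset of A left in. For CYHR1 too, G and H were the higher cycloheximide libraries, with 0.168 and 0.218 RPKM against 0.0315 to 0.0428 in D to F. What this likeness follows was not tested. Without library B the ratios of EN1 and CYHR1 turned to -3.10 and -2.37.

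Library B was also the high one in other leading genes. METRN, which encodes the secreted factor meteorin (hg19 chromosome 16, 765115 to 769655), had 0.216 RPKM in A, 32.1 in B and 0.351 in C against a cycloheximide mean of 1.048, and its ratio of 3.29 became -1.65 without B. PPP1R3E, a subunit that directs protein phosphatase 1 to glycogen, had 19.2 RPKM in B and 0 in A and C against 0.378 with cycloheximide, a ratio of 4.00 (3.77 to 4.23). GATAD2A, part of the NuRD repressor that remodels chromatin, had 0.148 in A, 9.14 in B and 0.145 in C against 0.325, and its ratio of 3.18 became -0.92 without B. HOXB8, a patterning homeobox gene, had 0.0222 in A, 3.39 in B and 0.335 in C against 0.116, with 3.34 for all libraries and 0.86 without B. The split of HOXB8 rests on an inferred length of 19008 bases, against 1823 listed, and is uncertain. In each of these genes B stood above A and C, and A was below the cycloheximide mean. On its own scale A was also below the median gene, at -1.43 for METRN, -0.28 for GATAD2A and -1.53 for HOXB8. SLC22A3 (an organic cation transporter), CCDC177, LCNL1, LOXL4 (a lysyl oxidase of the matrix), TULP1 and ANK1 (an ankyrin of the membrane skeleton) were likewise carried by B, with 0 in A for all of them and 0.713 to 3.29 RPKM in B. HRC, a calcium-binding protein of muscle, was the exception among these, with 0 in A, 0.0921 in B and 1.23 in C against 0.0311, so that there library C was high.

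**Figure D3:**
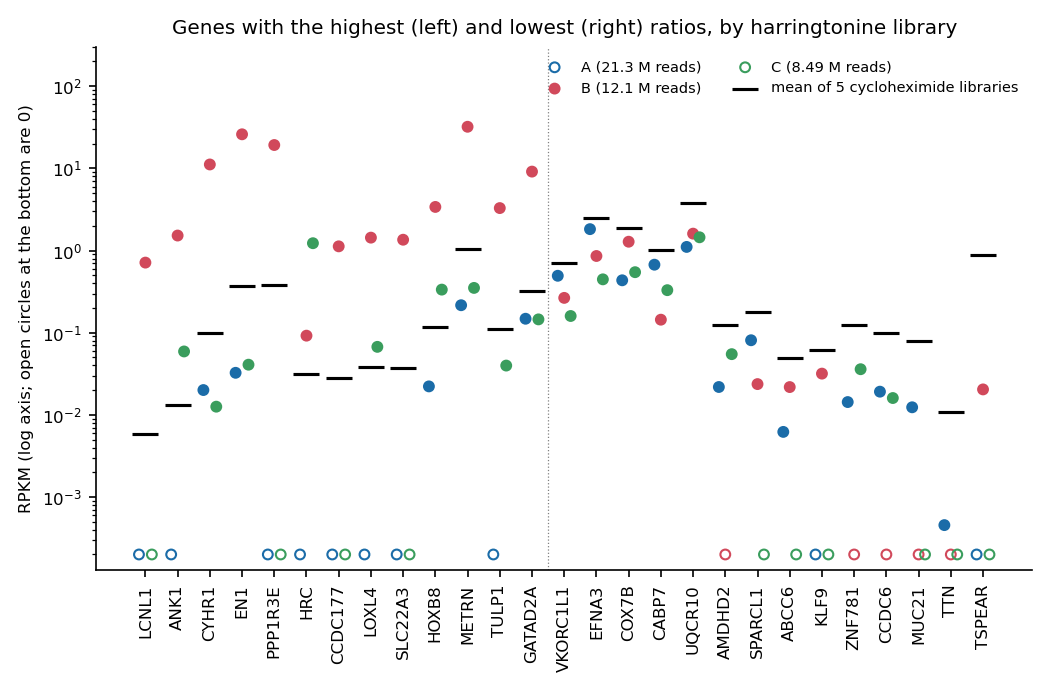
RPKM (log axis) in harringtonine libraries A, B and C and the mean of the 5 cycloheximide libraries (bar) for the genes with the highest and lowest ratios that could be separated; open circles at the bottom are values of 0. To the left of the dotted line library B is the high one in 12 of 13 genes, and to the right each of the 3 libraries lies under the bar. Values are RPKM before each library is set to its own median gene.

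Other leading genes could not be separated. CDK6, the cyclin D-dependent kinase of G1 phase (ENSG00000105810, hg19 chromosome 7, 92234235 to 92465908), had means of 62.2 RPKM with harringtonine and 2.07 with cycloheximide, a ratio of 4.82 (4.76 to 4.88). METRNL, the meteorin-like secreted factor, had 66.5 against 4.81 (3.70), BMP8B, a bone morphogenetic protein, 392 against 39.5 (3.23), and FLYWCH1 357 against 36.4 (3.21). FBRSL1 had 17.9982 against 1.84 (3.20). Which libraries held these values is not known. BMP8B and FLYWCH1 took 6.08% and 5.90% of the effective reads of the harringtonine group, behind C16orf93 with 16.5%, which was also the gene with the most effective reads with cycloheximide (10.7%) and had a ratio of 1.10. RAB12, a small GTPase of vesicle traffic, had 299 against 46.8 RPKM (2.59).

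Of the 378 higher genes, 234 could be separated, and 54 of these had over 90% of their summed harringtonine RPKM in library B. Among all 5020 separated genes 126 (2.51%) had such a share in B, 12 (0.239%) in C and 2 (0.0398%) in A. Among the higher genes that were at least 4-fold up, 29 of 40 separated genes were of this kind. Without library B, 144 of the 234 were still called higher and 46 were instead called lower. Counted afresh without B, 563 (11.2%) of separated genes were higher by that margin and 873 (17.4%) lower, against 234 (4.66%) and 269 (5.36%) with it. Removing A gave 298 (5.94%) higher and 378 (7.53%) lower, and removing C gave 326 (6.49%) and 367 (7.31%). Taken alone, library A had 484 genes (9.64%) at least 2-fold above its median gene and 763 (15.2%) below, B had 665 (13.2%) and 784 (15.6%), and C had 869 (17.3%) and 1300 (25.9%).

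Genes still higher without B drew mostly on library C. PCK2, the mitochondrial phosphoenolpyruvate carboxykinase, had 0.190 RPKM in A, 0.0983 in B and 6.66 in C against 0.395 with cycloheximide, a ratio of 2.47 that became 3.35 without B. CLCA2, a chloride channel regulator, had 0.574, 0.623 and 4.66 against 0.434. VSTM2A had 0.217, 0.0423 and 2.88 against 0.234. PELP1, a nuclear receptor coactivator, had 0.932, 0.405 and 2.87 against 0.582, and the RNA-binding HNRNPH2 had 1.41, 0.797 and 4.05 against 0.879. FAM98A differed in that A was the high library, with 2.36 RPKM in A, 0.117 in B and 1.36 in C against 0.457. Library C held over 50% of the summed RPKM in 113 of these 144 genes, against 1605 of all 5020 separated genes, and a set chosen as high without B is biased towards A and C. These 6 are among the 10 genes of that set with the most effective reads and were chosen after their values were seen.

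Genes at least 2-fold higher in the means and in each of the 3 libraries on its own scale numbered 16 of 5020 (0.319%), and 28 (0.558%) were lower in each. The 3 ratios share the cycloheximide mean. The higher ones were thin genes, among them HMHA1 with 0.0508, 0.153 and 0.310 RPKM in A, B and C against 0.0291 (ratio 2.47), KAT6B, a histone acetyltransferase, with 0.0704, 0.142 and 0.185 against 0.0452, and ARID5B, a DNA-binding chromatin factor, with 0.0460, 0.0807 and 0.144 against 0.0330. These were chosen after their values were seen.

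The lowest ratios stood on few harringtonine reads in every library. TSPEAR, a gene of hearing and tooth development (hg19 chromosome 21, 45917775 to 46131495), had 0 RPKM in A and C and 0.0204 in B against a cycloheximide mean of 0.888, a ratio of -7.12 (-12.50 to -4.61). TTN, which encodes the giant muscle protein titin, had 0.604 effective reads with harringtonine and 122 with cycloheximide (-6.25). CCDC6, a coiled-coil protein, had 3, 0 and 1 reads in A, B and C against 28, 12, 20, 9 and 12 in D to H. Each harringtonine library of CCDC6 lay below every cycloheximide library once scaled, and its ratio was -3.15 (-5.79 to -1.40). MUC21, a mucin, the zinc finger genes ZNF781 and KLF9, and the transporter ABCC6 had ratios of -4.36, -2.97, -2.64 and -2.49 with 0.548 to 2.00 effective reads with harringtonine. MYBL1, COX14, EXTL2, HAUS4, PRKD1 and UCP2, with ratios of -4.13 to -2.62, could not be separated.

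Genes with more reads fell less far. MAEA, a subunit of a ubiquitin ligase, had 1.52 RPKM with harringtonine against 5.62 (-1.98) and KDM6B, a histone H3 demethylase, 0.111 against 0.446 (-2.09); neither could be separated. UQCR10, a small subunit of respiratory complex III, had 1.11 RPKM in A, 1.61 in B and 1.45 in C against 3.84 (-1.56). COX7B, of cytochrome c oxidase, had 0.434, 1.28 and 0.545 against 1.88 (-1.41). EFNA3, an ephrin ligand, had 1.82, 0.858 and 0.446 against 2.50 (-1.35), VKORC1L1 0.493, 0.265 and 0.160 against 0.714 (-1.31), and CABP7, a calcium-binding protein, 0.673, 0.144 and 0.329 against 1.01 (-1.49). UQCR10 and COX7B were below the median gene in each library on its own scale. EFNA3, VKORC1L1 and CABP7 were below it in B and C but above it in A, by 0.39, 0.32 and 0.27 on the log2 scale. Of the 407 lower genes 269 could be separated. Among these, 218 lay below the median gene in all 3 libraries, against 525 (10.5%) of all separated genes, and 201 stayed at least 2-fold lower without B. The higher genes had 87 of 234 above the median in all 3, against 534 (10.6%) of all. Both sets were chosen on the mean of these same libraries. A low mean leaves little room for a high library, whereas a single library can make a high mean. These shares therefore do not measure how well the libraries agree.

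The separated reads of 8 libraries were tested with limma, 3 against 5, an addition made after the values were seen. None of 3068 genes (0%) had an adjusted p under 0.05, and 90 (2.93%) had an unadjusted p under 0.05. The lowest adjusted p over genes was 0.9999 in this limma fit. Leaving out 1 library at a time gave 0 genes each time in limma, with 62 to 252 at an unadjusted p under 0.05, and the lowest limma adjusted p was 0.0694 without library B. Among these genes no difference between the drugs passed the spread between libraries. Genes not separated in all 8 libraries, such as CDK6, had no such test. That also holds for genes separated in A, B and C alone, among them METRN, PPP1R3E, GATAD2A, HOXB8, SLC22A3, TSPEAR, TTN, UQCR10 and COX7B.

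All 3 harringtonine libraries were above every cycloheximide library for 21 genes (0.684%) and below for 40 (1.3%). Labels set at random on 3 and 5 libraries would by themselves give shares of at least this size. S100A11, a small calcium-binding protein, had the lowest p in limma, with 0, 9 and 2 reads in A, B and C against 27, 20, 14, 28 and 30 in D to H. Its log2 difference was -2.76 ± 0.67 (SE), and its limma adjusted p was 0.9999. MFF, which recruits the mitochondrial fission machinery, had 1, 4 and 3 against 20, 8, 13, 15 and 25. MAPK3, the kinase ERK1, had 4, 9 and 0 against 20, 8, 12, 23 and 32. UFM1, a ubiquitin-like modifier, had 4, 6 and 2 against 36, 9, 18, 24 and 14, and EIF4EBP2, a repressor that binds the cap-binding factor eIF4E, had 2, 4 and 1 against 15, 8, 9, 22 and 9. CKS1B, a cyclin-dependent kinase cofactor, had 7, 12 and 10 against 56, 15, 26, 42 and 50. In the other direction HMHA1 had 7, 12 and 17 reads against 3, 3, 5, 5 and 3, and ITGA2B, an integrin of platelets, 6, 11 and 12 against 1, 1, 5, 8 and 11. Groups were compared after scaling each library to its median, so raw reads can overlap where the scaled values do not. These genes were chosen after their values were seen.

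Genes for very short proteins were among the lists with low ratios, above only the mitochondrially encoded genes and humanin-like copies described below. Of 54 compared genes for very short proteins, 7 lay above the median gene (50.1% of all compared genes did) and 11 were at least 2-fold lower with none higher (list median -0.48, against 0.00 over all compared genes and 4.41% called lower). By library the median of the 29 separated members was -0.67 in A, -0.83 in B and -0.07 in C, and -0.25 without B. In library C 14 of 29 were above the median gene, in A 5 and in B 1. The called members were S100A11 (-1.96), POLR2K, a subunit shared by the RNA polymerases (-1.77), TMSB4X, thymosin beta 4, which binds actin monomers (-1.74), SNRPG and SNRPE, Sm proteins of the spliceosome (-1.61 and -1.15), UQCR10, COX7B, the G-protein gamma subunit GNG5 (-1.36), CKS1B (-1.27), S100A13 (-1.07) and SUMO2, a ubiquitin-like modifier (-1.02). SNRPG had 0.366, 0.689 and 0.394 RPKM in A, B and C against 1.38, and was below the cycloheximide mean in each. On each library's own scale SNRPG stood at -1.07, -1.19 and -1.95. Members of the lists were chosen with earlier results of these data known, and no list was tested.

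Oxidative phosphorylation genes, many of which encode small subunits, had a median of -0.32 over 68 compared genes, with 15 above the median gene, 1 at least 2-fold higher and 4 lower by as much. The shares over all compared genes were 50.1% above, 4.09% at least 2-fold higher and 4.41% lower. COX7C had 1.51, 3.37 and 3.54 RPKM in A, B and C against 4.33 (-0.71), and COX6B1 3.31, 5.63 and 13.6 against 11.1 (-0.65), so library C was above the cycloheximide mean for COX6B1. The list's library medians were -0.48, -0.56 and 0.16, so the list lay above the median gene in C. Replication-dependent histones, whose mRNAs lack a poly(A) tail, had a median of -0.42 with 3 of 19 above the median gene and none past 2-fold. HIST1H2BK stood at 24.97 against 39.5 RPKM (-0.75) and HIST2H2BE at 8.51 against 12.9 (-0.69). HIST2H3A and HIST2H3C are near-identical copies and their values (28.2 against 40.6, and 28.2 against 40.5) cannot be told apart. Library medians for histones were -0.18, -1.03 and 0.43, and the median without B was 0.20.

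All 6 mitochondrially encoded genes among the members lay below the median gene (median -1.04), 4 of them at least 2-fold. By that margin 4.41% of all compared genes were lower. MT-CO3, of cytochrome c oxidase, had 4.00 RPKM with harringtonine against 9.27 (-1.30, interval -1.60 to -1.02), MT-ND6, of complex I, 22.9 against 49.2 (-1.19), MT-ATP6 2.38 against 4.68 (-1.06) and MT-CYB 2.34 against 4.41 (-1.01). MT-ND5 and MT-ND4 stood at -0.68 and -0.31. A further 4 mitochondrial genes are no members because the knockout's harringtonine library lists them at 0, and in wild type MT-CO1 was above the median gene (127 against 75.3 RPKM, 0.67) as was MT-ND2 (0.24), while MT-CO2 (-0.86) and MT-ND1 (-0.15) were below. None could be separated into libraries. The humanin-like MTRNR2L genes, nuclear copies of mitochondrial ribosomal RNA, were all 12 below the median gene (median -0.53), but they share reads with each other and with the mitochondrial genome and are uncertain. Their 5 separated members had medians of -0.14 in A, 0.18 in B and -2.73 in C.

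The machinery of translation lay near the median gene in the means and far from it, in opposite directions, in single libraries. Of 50 large-subunit ribosomal protein genes none passed 2-fold and 17 lay above the median gene (median -0.20), and of 30 small-subunit genes 9 did (median -0.16), with RPS10 at least 2-fold higher (5.97 against 2.48 RPKM, 1.18) and 1 gene lower. The 13 separated large-subunit genes had medians of -0.25 in A, -0.85 in B and 0.83 in C, with 1 of 13 above the median gene in B and 13 of 13 in C, and a median of 0.52 without B. RPLP1, an acidic protein of the ribosomal stalk, had 1.66, 2.31 and 13.1 RPKM in A, B and C against 3.67, and RPL38 had 2.57, 3.58 and 9.56 against 6.67. Initiation factors (46 genes, median 0.08) included the scaffold EIF4G1 at 3.69 against 1.87 RPKM (0.89, interval 0.75 to 1.02) and EIF3A at 3.39 against 1.85 (0.79). The elongation factors EEF2 and EEF1A1 stood at 0.68 and 0.44. Aminoacyl-tRNA synthetases, which charge tRNAs, had 15 of 19 above the median gene (median 0.31) and none past 2-fold, with medians of 0.68 in A, -0.80 in B and 1.34 in C over the 5 that separated.

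Large and nucleolar factors had higher list medians. Of all compared genes 50.1% lay above the median gene, 4.09% were at least 2-fold higher and 4.41% lower. DEAD and DEAH helicases had 35 of 45 above the median gene (0.40), with 1 called each way. DHX9 stood at 3.77 against 2.08 RPKM (0.77) and the nucleolar DDX21 at 3.82 against 2.27 (0.66). Ribosome biogenesis genes had 48 of 69 above (0.24), 3 at least 2-fold higher and 1 lower, among them nucleolin, NCL (0.68), and RRP12 (1.17, interval 0.80 to 1.54). Genes for giant proteins had 51 of 66 above (0.22), 1 at least 2-fold higher and none lower, with FASN, fatty acid synthase, at 4.21 against 2.29 (0.79) and MYH9, non-muscle myosin, at 1.84 against 0.995 (0.80). The separated members were few. The 25 separated biogenesis genes had a median of 0.13 in the means, -0.44 in B and 0.78 without B, and the 9 separated giant-protein genes 0.09, -0.67 and 0.32. The 10 separated helicases had a median of -0.19 in the means and -0.03 without B, so they do not stand for the 45.

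**Figure D4:**
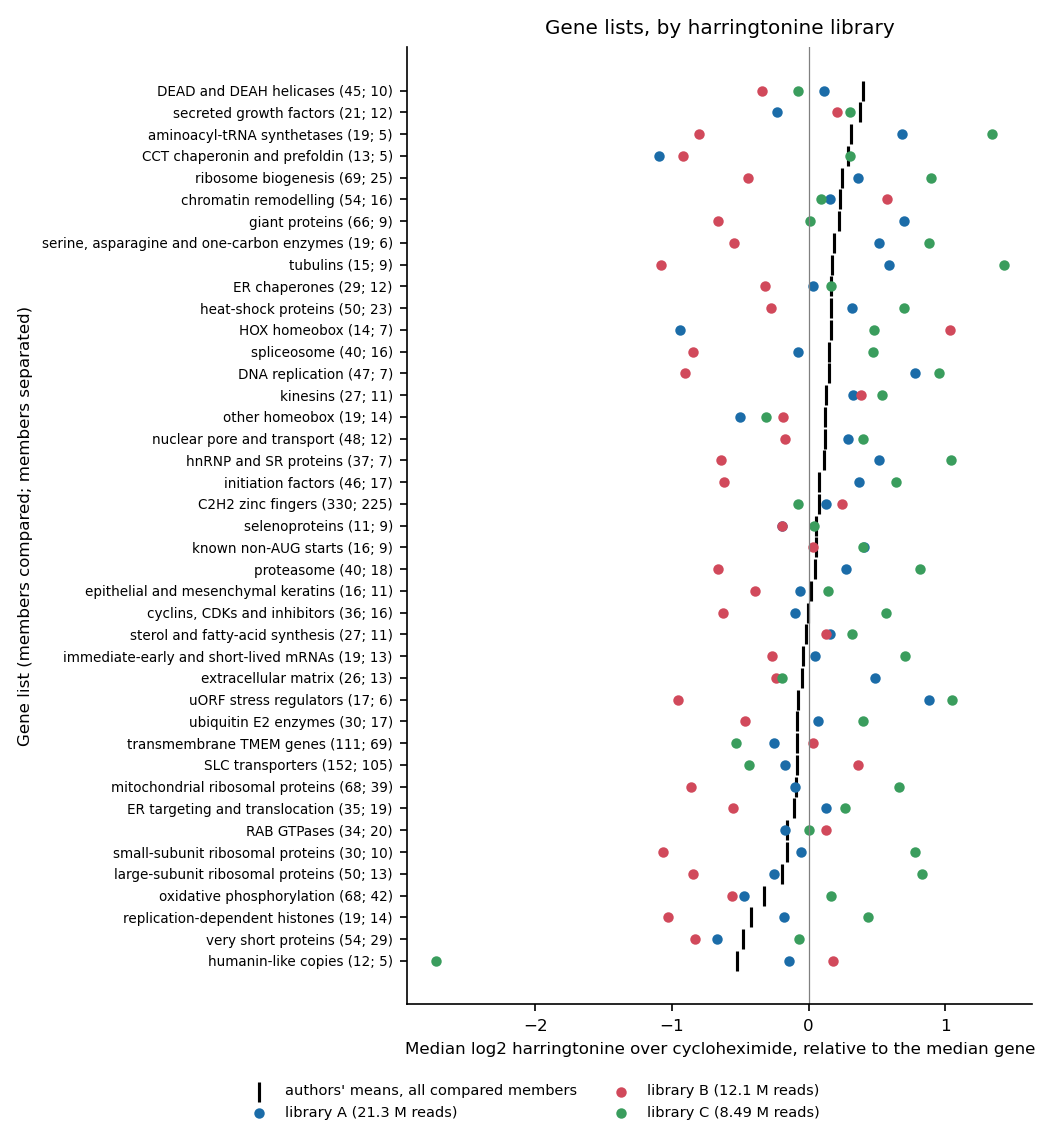
Median log2 ratio of 41 gene lists with at least 5 separated members, relative to the median gene; the black bar is the median over all compared members from the authors' means and the coloured points are the separated members in libraries A, B and C. In 26 lists library B lies below 0 while library C lies above it.

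Of 41 lists with at least 5 separated members, 26 were below the median gene in B and above it in C, and 4 the reverse. SLC transporters were among the latter, with medians of -0.18 in A, 0.36 in B and -0.44 in C over 105 genes. Lists on the same side in all 3 libraries were few, 2 below (very short proteins and homeobox genes outside the HOX clusters) and 4 above (kinesins, chromatin remodelling, sterol and fatty-acid synthesis, and genes with known non-AUG starts). These sides are those of the separated members. In the authors' means the homeobox list lay on the other side, at 0.12 over 19 compared genes. So did sterol and fatty-acid synthesis, at -0.02 over 27, while the rest kept their side. The list of non-AUG starts was close to the median gene in B, at 0.03. The kinesins, motors of microtubules, had medians of 0.32, 0.39 and 0.53 over 11 genes, with KIF7 of hedgehog signalling at 0.0425, 0.0933 and 0.347 RPKM against 0.0613 (1.30). Among genes with known non-AUG starts R3HCC1 had 0.214, 0.0940 and 1.43 against 0.171 (1.68), MYC 1.67 against 1.97 (-0.33) and EIF4G2, translated from GUG, 1.10 against 0.886 (0.23). On each library's own scale R3HCC1 stood at 1.18 in A and 2.93 in C but at -1.05 in B.

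Secreted growth factors had the largest share of higher genes among lists of at least 5 compared members, 7 of 21 at least 2-fold higher against 4.09% of all compared genes, and 1 lower (MDK, -1.40). The list was written with earlier results of these data known and holds some of the highest ratios. Its share is therefore a description only and was not tested. METRNL, METRN and BMP8B are given above. The others were GDF11 (0.0976 RPKM in A, 0.643 in B and 0.0306 in C against 0.0821, ratio 1.56), WNT5A (0.0141, 0.0742 and 0.212 against 0.0381, 1.30), the progranulin gene GRN (0.5998, 0.398 and 2.14 against 0.452, 1.12) and MANF (1.11). GDF11 was highest in B and WNT5A in C. On each library's own scale GRN stood at 1.26 in A, -0.37 in B and 2.11 in C. Chromatin remodelling genes had 8 of 54 at least 2-fold higher and 1 lower (median 0.23), GATAD2A, MBD3 (1.07) and MBD2 (1.40) of NuRD, BRD9 (1.57), CHD7 (1.04), CHD5 (1.01, with an interval that includes 0), INO80B (1.08) and ARID5B (1.36). Of the 5 that separated (GATAD2A, MBD2, INO80B, ARID5B and CHD5), GATAD2A was the 1 that lay below the median gene without B. HOX genes had 3 of 14 at least 2-fold higher, HOXB8, HOXD13 (0.0838, 6.22 and 0.210 RPKM against 0.672, 1.60, and -1.96 without B) and HOXB6 (1.60). Zinc finger genes of the C2H2 type had 20 of 330 higher and 11 lower (median 0.07), led by ZNF792 (2.55) and by ZNF219, which held 0.454, 12.4 and 0.235 RPKM against 0.730 (2.49, and -0.85 without B).

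The polyamine and stress genes, whose translation is controlled by short upstream frames or frameshifts, did not move together. OAZ2, an antizyme read through a frameshift, was higher at 29.96 against 12.6 RPKM (1.16), and AMD1, a decarboxylase of polyamine synthesis, lower at 0.0934 against 0.232 (-1.40), while ODC1 stood at -0.48. Of 17 genes with regulatory upstream frames 7 lay above the median gene and none passed 2-fold (median -0.08). Their 6 separated members had medians of 0.88 in A, -0.95 in B and 1.048 in C. Genes listed at 0 with harringtonine but read with cycloheximide were led by TLR6 (24.0 effective reads), LHX9 (22.3) and ULBP2 (21.5), and genes listed at 0 with cycloheximide by SPRN (48.6 effective reads with harringtonine) and GMPPB (43.9).

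Transcript length was compared through the longest transcript that the table lists. Genes were put into 10 groups of near-equal size by that length. In the means the shortest group (498 to 1740 bases) had a median ratio of -0.13 and the longest (7762 to 109224 bases) of 0.04, a difference of 0.18. In the shortest group 59 of 924 genes (6.39%) were at least 2-fold lower, against 26 of 923 (2.82%) in the longest. By library the relation ran in different directions. Library B went from -0.63 in the shortest group to 0.38 in the longest, library C from 0.38 to -0.25, and library A from -0.13 to -0.01. With the 10 groups formed among separated genes alone, the difference was 0.98 in B, -0.54 in C and 0.14 in A, and without B the difference in the mean of A and C was -0.36.

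**Figure D5:**
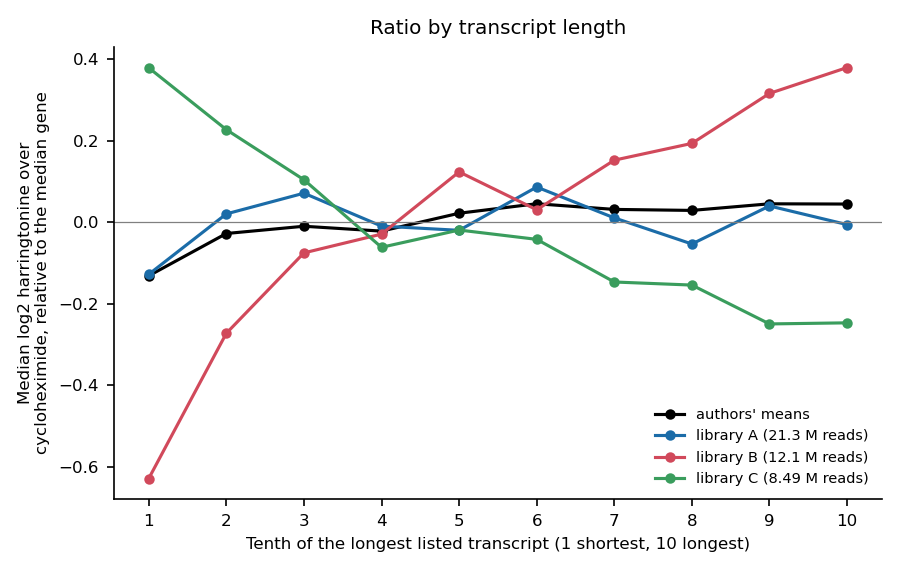
Median log2 ratio relative to the median gene for genes in 10 groups by the longest listed transcript, shortest to longest, from the authors' means (black, 9231 genes) and from libraries A, B and C (5020 genes). Library B rises with length from -0.63 to 0.38 while library C falls from 0.38 to -0.25.

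Level ran with length, and the libraries also parted by level. From the lowest to the highest of 10 groups by wild-type density, medians went from 0.14 to -0.72 in B, from -0.64 to 0.63 in C and from -0.27 to 0.08 in A. In the means they went from -0.22 to 0.10. Within each of 5 level groups the longest of 3 length classes was above the shortest in the means, by 0.13 to 0.38. In A the difference was 0.18 to 0.38 and in B 0.23 to 0.36. In C it was 0.05 to 0.29 in the 4 lower level groups and -0.34 in the highest. Across genes the Spearman correlation of the ratio with length was 0.08 in the means, and 0.04, 0.25 and -0.14 in A, B and C.

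The drug ratio was also available in the CNBP knockout, from other libraries, 1 with harringtonine against 3 with cycloheximide. CNBP itself stood at 3.73 and 3.27 RPKM with cycloheximide and harringtonine in wild type and at 2.20 and 2.36 in the libraries labelled knockout. Across the 9231 genes the wild-type and knockout ratios had a Pearson correlation of 0.06 and a Spearman correlation of 0.08. By library, over separated genes, the Pearson correlation was 0.09 for A, -0.10 for B and 0.16 for C. The Spearman correlations were 0.10, -0.15 and 0.19. In the knockout 711 of the 9231 genes (7.7%) stood 2-fold or more above the median gene and 886 (9.6%) 2-fold or more below. Of the 378 genes higher in wild type, 60 (15.9%) were higher by that margin in the knockout and 43 (11.4%) lower, with a median of 0.10. Of the 407 lower genes, 79 (19.4%) were lower in the knockout and 49 (12.04%) higher, with a median of -0.10. With 1 knockout library there is no test.

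The leading wild-type genes were mostly flat there. CDK6 stood at 4.34 RPKM with harringtonine and 3.45 with cycloheximide in the knockout, relative ratio 0.07, against 4.82 in wild type. EN1 stood at 0.604 and 0.407 (0.31), PPP1R3E at 0.699 and 0.559 (0.06), CYHR1 at 0.254 and 0.193 (0.13) and BMP8B at 70.6 and 60.7 (-0.04). METRNL and GATAD2A went the other way, with 7.88 against 35.3 (-2.42) and 0.326 against 1.47 (-2.43), while HOXB8 (2.07), FBRSL1 (1.21), RAB12 (1.06) and LSM4, a spliceosome protein (1.17, and 1.80 in wild type), were higher there too. TSPEAR was higher in the knockout, 6.504 against 1.54 (1.81), where wild type had -7.12. MAEA was lower in both, with -4.18 in the knockout. The 54 genes carried by library B had a knockout median of 0.10, with 10 at least 2-fold higher and 7 lower. Very short proteins had a knockout median of -0.10, helicases 0.04 and giant proteins 0.24, against -0.48, 0.40 and 0.22 in wild type, and mitochondrially encoded members -0.61. Among the latter MT-ND6 stood at 2.31 in the knockout. Secreted growth factors had a knockout median of -0.42 with 4 of 21 above the median gene, against 0.38 and 16 of 21 in wild type.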

How the data were processed

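TopHat and hg19 are the tool and the build that the submitters' processing notes name; how reads were counted is not stated there. The authors deposited 1 mean RPKM per gene for each of 4 groups, without library values. Whole reads per library were recovered from those deposited means: value steps gave each library's total, and the single knockout harringtonine library gave each gene's length up to a whole multiple. Multiples were tried in turn under a limit on chance solutions (0.05 over 3 libraries, 0.1 over 5). That limit holds for each length tried, not for all of them together. Of 12091 genes, 1554 split over 3 libraries but had no whole-read solution over 5, and their values in A, B and C were kept. Some accepted lengths far exceeded the listed transcript, as for HOXB8 (19008 against 1823 bases), and such splits are uncertain. A compared gene had all 4 means above 0 and at least 30 effective reads in wild type. Rows lacking a knockout value (918), on alternate sequences (290) or whose deposited log2 LFC differed from the means (11) were set aside; 26 symbols are spreadsheet dates. Other deposited columns, the LFC and TE score values of the authors, were not used. The design had foreseen no test, since columns are means; limma 3.58.1 (R 4.3.3) on log2 reads scaled to library size, with 0.5 added, libraries centred on their median and Benjamini-Hochberg adjustment, was added once reads were recovered. Ratios, intervals and the separation used Python 3.11.15 and scipy 1.17.1, and the separation and limma were tested on simulated data. Named genes were the 15 highest and lowest with intervals excluding 0, the 10 highest and lowest with at least 300 effective reads, up to 4 per list by ratio over counting error, the 5 with most reads per group, and those listed at 0. The members, lists and rules were chosen with earlier results of these data known. P-values measure only the spread between these samples, which may be technical.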

Additional observations from a re-analysis of the deposited data

Results flagged for a closer look

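Of the 26 named genes with values in all 5 cycloheximide libraries, 5 had 1 cycloheximide library far from the other 4, by a gap of more than 0.71 of the group's range. For normally distributed values chance gives about 1 such group in 20. The values here rest on few reads, some of them 0, and many of the genes were picked for extreme ratios. That rate therefore cannot be set against the 5 genes. Library G was high for LCNL1 (0.0293 RPKM from 2 reads, against 0 in the other 4) and for TULP1 (0.494, median of the 5 libraries 0.0169). Library H was high for ZNF781 (0.392, median 0.0459) and for SELO, a selenoprotein (0.566, median 0.102). Library E was low for PPP1R15B, a phosphatase subunit of the stress response (0.0775, median 0.329). LCNL1, TULP1 and ZNF781 are also among the leading ratios, and their cycloheximide means rest on these libraries.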

How the results depend on the processing

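Genes at least 2-fold higher (378) numbered 472 without centring, 337 with upper-quartile scaling, 840 with no filter on low values, 65 with at least 100 effective reads in each wild-type group, 39 with a pseudocount of 1 and 379 with all rows kept; genes at least 2-fold lower (407) numbered 327, 490, 904, 5, 4 and 407. The split of higher against lower calls therefore moved with the centring. The stricter filter tests fewer genes and a pseudocount of 1 shrinks ratios of genes below 1 RPKM. Leaving out 1 harringtonine library at a time gave 298 to 563 higher and 367 to 873 lower among separated genes (234 and 269 with all 3), and 234 and 245 with each library scaled to its own median. The difference between the longest and shortest of 10 length groups (0.18) was 0.20 unfiltered, 0.49 with the stricter filter, 0.02 with the pseudocount, and -0.36 to 0.60 leaving out 1 library. Limma called 0 genes under all 11 alternatives. Called ratios that changed sign ranged, leaving out 1 library, from -2.37 to 5.97 for CYHR1, -3.10 to 5.29 for EN1, -0.92 to 3.99 for GATAD2A, -1.65 to 4.10 for METRN, -2.26 to 4.02 for TULP1, -1.96 to 2.38 for HOXD13, -1.74 to 2.67 for EN2, -0.83 to 1.90 for COL5A1, -0.41 to 2.23 for TMEM132A, -0.85 to 3.29 for ZNF219 and -1.97 to 2.10 for ZNF532, each turning without library B. LCNL1, PPP1R3E, CCDC177, SLC22A3, TSPEAR and KLF9 have no ratio without library B, being at 0 in A and C, and TTN and MUC21 none without A. Named genes that could not be separated have no such values. Protein length as the measure was not run, since protein lengths were not used here. No paired analysis was possible because the table gives group means and the recovered libraries carry no sample numbers. Depth limits single genes: the median compared gene had a counting interval of ± 0.71 in log2, and differences below that could not be resolved.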
